A study of Mus musculus with 4 samples.

Results

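The 70 histone entries described here are those of 112302 in the deposited tables whose symbols begin with HIST1H, HIST2H, HIST3H or HIST4H, the names of the replication-dependent histone clusters and of the testis histones that lie among them. They comprise 6 entries of the linker histone H1, 20 of H2A, 19 of H2B, 12 of H3 and 13 of H4, and are spelled below as mouse genes (HIST1H1T as Hist1h1t). RNA of BALB/C mouse testis, bought from a supplier, was sequenced in 4 libraries, 1 from fetuses at day 14 (E14), 1 from fetuses at day 18 (E18), 1 from mice of 3 weeks and 1 from mice of 6 months, with no treatment or altered gene named and no statement of how many animals gave each RNA. The series' title concerns small RNAs that guide cleavage of transcripts, and these libraries give transcript levels along testis development. The protocol lists removal of ribosomal RNA followed by isolation of polyadenylated RNA, whereas the design text names ribosomal RNA removal alone. Which of these describes the libraries matters for histone RNAs, since most of them carry no poly(A) tail, and the files do not settle it.

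Histone proteins of classes H2A, H2B, H3 and H4 form the core of the nucleosome, and H1 binds the DNA that links nucleosomes. Replication-dependent histone genes are transcribed in S phase, when DNA is copied, and their mRNAs end in a conserved stem-loop bound by the protein SLBP, not in a poly(A) tail. Male germ cells also make testis histones, among them the linker histone H1t (Hist1h1t), TH2A (Hist1h2aa) and TH2B (Hist1h2ba), which take the place of other histones in spermatocytes before protamines replace most histones in spermatids. Some replication-dependent genes can also give polyadenylated RNAs in cells that no longer divide.

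All 70 symbols were found in the GENCODE vM21 annotation of the build GRCm38, also called mm10. Of these, 56 lie on chromosome 13, 10 on chromosome 3, 3 on chromosome 11 and 1 on chromosome 6. Protein-coding genes made up 67, and Hist1h2aj, Hist1h2al and Hist3h2bb-ps are annotated as pseudogenes. The stem-loop was searched in the annotated transcripts as the stem GGNNCT, the loop TTTN and the stem AGNNCC in a row (N is any base, transcript strand only). It was found in 44 of the 70 genes (62.9%), against 89 of 55341 genes in the annotation (0.161%). The 89 include these 44. Annotated transcripts of the other 26 members did not hold these letters. Some of these are short, with 381 annotated bases for Hist1h2bl and 312 for Hist1h4k, and may end before a stem-loop that the gene holds. Hist1h1t, which was high after birth, and Hist1h1c and Hist1h3b, which were high before birth, are given here with examples of the forms found in H4 genes. Each line gives the stem-loop in capitals with its flanking bases, written as DNA from the GENCODE vM21 transcripts, with the stem-loop on the plus strand of GRCm38 at chr13:23696525-23696540, chr13:23739512-23739527, chr13:23752820-23752835, chr13:23581950-23581965 and chr13:23757366-23757381, in the order of the lines.
Hist1h1t: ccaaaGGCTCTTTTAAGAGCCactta
Hist1h1c: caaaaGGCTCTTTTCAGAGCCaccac
Hist1h3b: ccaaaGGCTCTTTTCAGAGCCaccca
Hist1h4d: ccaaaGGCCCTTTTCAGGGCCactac
Hist1h4b: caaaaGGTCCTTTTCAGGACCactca
The form of Hist1h1c and Hist1h3b was the most frequent, in 26 members. The form of Hist1h1t was found in 6 members, 3 of them H3 genes and 2 of them H2B genes. Forms with GGCC or GGTC at the start were found in 11 members, all H4 genes.

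Upstream sequence was matched for 62 members in RefSeq (GRCm38.p6), and the 250 bases before each RefSeq gene start were searched on both strands for TATAAA, the core of a TATA box, CCAAT, the core of the site bound by NF-Y, ATTTGCAT, the octamer bound by Oct factors, and TGACGTCA, the site bound by CREB and CREM. No motif contains another, and a match describes the letters alone. CCAAT was found upstream of 51 of the 62 members (82.3%), against 34.5% of 27025 promoters, and TATAAA upstream of 29 (46.8%), against 12.97%. By class, CCAAT was upstream of 6 of 6 H1, 18 of 18 H2A, 16 of 16 H2B and 8 of 10 H3 members, and of 3 of 12 H4 members. ATTTGCAT was found upstream of 13 members (21.0%, against 1.61%), 7 of them H2A and 6 of them H2B genes. TGACGTCA was found upstream of 4 members (6.45%, against 1.62%). H2A and H2B members that start head to head (14 pairs) lie 172 to 305 bases apart. Their upstream stretches overlap, so that 1 site can count for both genes, and the counts of members are not counts of separate sites. The sequence between the divergently transcribed Hist1h2ba and Hist1h2aa is shown because both genes were higher after birth, and those of Hist1h1t and Hist1h1b because these H1 genes differed most in opposite directions. They cover chr13:23934187-23934436 (plus strand, read towards Hist1h2aa), chr13:23695561-23695810 (plus strand) and chr13:21780626-21780875 (minus strand) of RefSeq GRCm38.p6, with matches on either strand in capitals.
Hist1h2aa: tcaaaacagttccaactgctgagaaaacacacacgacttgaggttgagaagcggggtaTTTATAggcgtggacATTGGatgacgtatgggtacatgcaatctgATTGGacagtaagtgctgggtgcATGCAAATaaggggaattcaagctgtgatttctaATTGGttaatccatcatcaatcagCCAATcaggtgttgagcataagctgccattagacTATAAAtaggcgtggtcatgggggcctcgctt
Hist1h1t: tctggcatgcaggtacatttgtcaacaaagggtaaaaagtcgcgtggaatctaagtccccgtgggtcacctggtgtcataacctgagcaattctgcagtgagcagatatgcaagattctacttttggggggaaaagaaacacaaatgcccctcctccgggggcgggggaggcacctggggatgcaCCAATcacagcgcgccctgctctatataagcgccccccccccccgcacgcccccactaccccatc
Hist1h1b: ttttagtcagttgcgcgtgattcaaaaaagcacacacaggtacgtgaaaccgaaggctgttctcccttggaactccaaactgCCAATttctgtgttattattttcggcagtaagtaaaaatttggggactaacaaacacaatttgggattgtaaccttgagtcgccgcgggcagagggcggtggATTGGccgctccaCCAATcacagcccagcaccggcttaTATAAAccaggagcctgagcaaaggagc
The Hist1h2aa sequence holds TATAAA once on each strand, CCAAT once on its own strand and 3 times on the strand of Hist1h2ba, and the octamer once on the strand of Hist1h2ba. Upstream of Hist1h1t, 1 CCAAT was the single match to the 4 motifs. Hist1h1b has TATAAA 28 bases before its start and CCAAT 3 times, counting both strands.

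Levels are given as RPKM, reads scaled to gene model length and library depth, as deposited. Reads behind the values were recovered for all 70 members, and 33952471 to 38903334 reads stood behind each library. RPKM of at least 1 was reached by 22135 to 33267 entries per library. A difference between stages is that of log2(RPKM + 1), later minus earlier, which understates the change of low genes, and it was called higher or lower from 2-fold (a difference of 1) upwards. No stage had a second library, hence no replicate check and no test, and "higher" and "lower" describe these libraries. Intervals in parentheses are exact intervals at 95% for counting error alone. All 70 members were among the 42964 entries that reached 1 RPKM in at least 1 library. In bulk RNA, fewer cells of a type and less RNA per cell cannot be told apart. Of the testis markers, the summed RPKM of 10 Sertoli cell genes was 11.7, 100.4, 152.5 and 143 along the 4 stages. Their median was 0.472, 6.77, 6.33 and 2.90 RPKM, so the sum and the median differed in direction between 3 weeks and E18. Summed RPKM of 12 spermatocyte markers was 2.83, 9.63, 718 and 428 in that order, and that of 10 elongating spermatid markers 3.19, 4.07, 34.7 and 7229. Markers of tissues other than testis differed between the libraries too: the summed RPKM of 6 liver markers was 301, 59.2, 0.648 and 0.386 in the same order, and that of 7 skeletal muscle markers 193, 45.3, 1.29 and 1.94. For 5 kidney tubule markers it was 1.39, 24.9, 0.656 and 0.273. The sum of 4 epididymis markers was highest at 3 weeks, with 0.0322, 1.26, 66.02 and 1.12 RPKM at the 4 stages. Crisp1 (41.5 RPKM) and Spink8 (22.0) made up most of it at 3 weeks, and Defb41 was higher at 6 months (0.357, against 0.188). The part of these other tissues in the differences below was not tested.

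Most histone entries were high in both fetal libraries and low in both libraries after birth. Summed over the 70 entries, RPKM reached 8476 (E14), 5783 (E18), 2041 (3 weeks) and 1778 (6 months), a sum in which reads that fall on several copies may count more than once. The median member stood at 114, 79.4, 12.4 and 12.1 RPKM. At E14, 43 members reached 100 RPKM and at E18 22 did. At 3 weeks 2 did, Hist1h2ba and Hist1h1t, and at 6 months Hist1h2al joined them. The order of members by RPKM was nearly the same at E18 as at E14 (Spearman's rho 0.993 across the 70 members, a description of entries that share libraries and reads) and at 6 months as at 3 weeks (0.964), and it differed between 3 weeks and E18 (0.360).

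**Figure D1:**
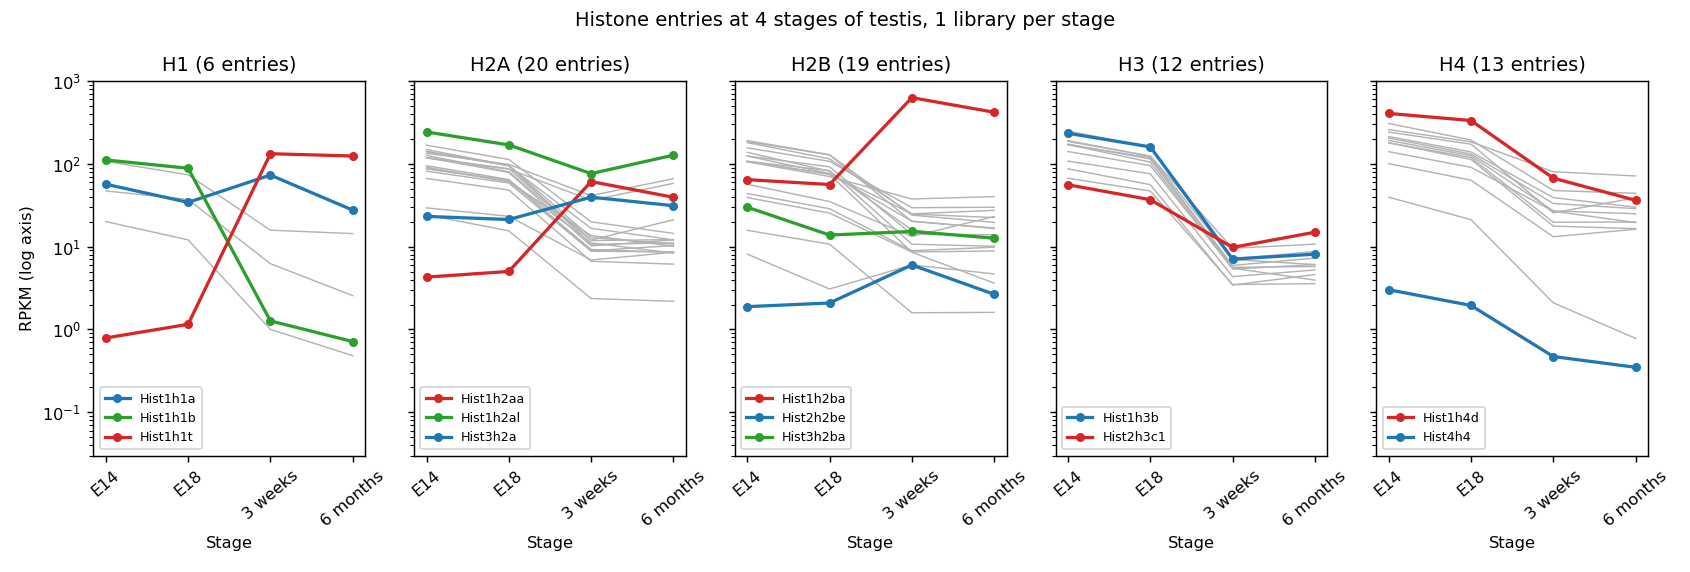
RPKM on a log axis at E14, E18, 3 weeks and 6 months, with 1 line per histone entry and 1 panel per class; named entries are in colour, the rest are grey, and each point is 1 library. All H3 and H4 lines fall between E18 and 3 weeks, while Hist1h1t, Hist1h2aa and Hist1h2ba climb in their panels.

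Between E18 and E14 the histone entries were lower together by a small amount. The ratio of RPKM at E18 to that at E14 had a median of 0.674 over the 70 members, and 67 were lower at E18 by any amount, against 30.7% of the 42964 entries. The counting interval of the ratio lay below 1 for all 67. The size was alike in the classes, with median log2 differences of -0.43 for H1, -0.50 for H2A, -0.56 for H2B, -0.58 for H3 and -0.61 for H4, and a median of 0.03 over all entries. The 3 entries that were not lower were Hist1h1t, Hist1h2aa and Hist2h2be, whose intervals included 1. Past 2-fold were 0 members higher, against 2.17% of all entries, and 2 lower, against 1.34%. These were both H2B entries of chromosome 11, Hist3h2ba (13.8 RPKM at E18, against 30.0 at E14, log2 difference -1.06) and its pseudogene neighbour Hist3h2bb-ps (3.08, against 8.13, log2 difference -1.16), and 30.0% of the 50-base windows of Hist3h2bb-ps are shared with Hist3h2ba.

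Between 3 weeks and E18, 61 of the 70 members were lower past 2-fold, against 10.5% of all entries, and 5 were higher, against 32%. Those higher were Hist1h1t, Hist1h2ba, Hist1h2aa, Hist2h2be and Hist1h1a. The other 4 were Hist1h2bj and the 3 members of chromosome 11, Hist3h2a, Hist3h2ba and Hist3h2bb-ps. The median difference was -2.33, against 0.46 over all entries. It was -3.93 for H3, -2.44 for H2A, -2.28 for H1, -2.17 for H4 and -1.82 for H2B. Rescaling the libraries over ribosomal protein genes raised the median of all entries by 0.66 and gave -1.26 for the members, with 43 lower and 8 higher. The median of ratios shifted all entries by -0.20, gave -2.65 and left 3 higher.

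**Figure D2:**
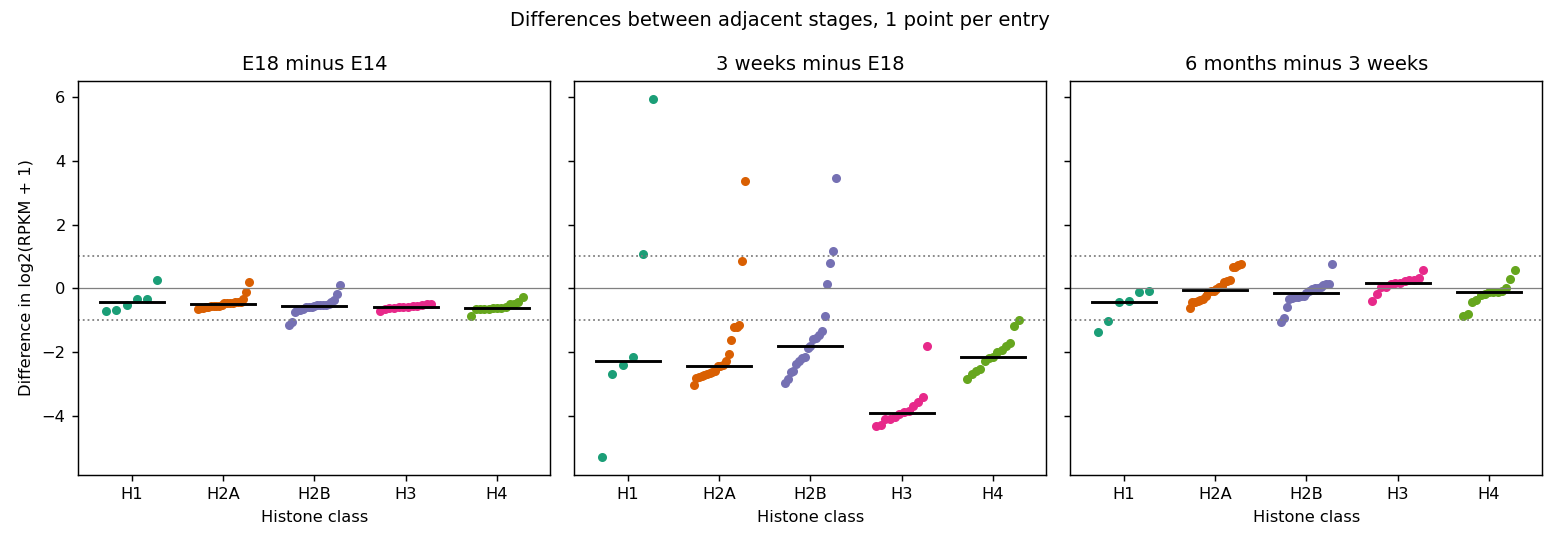
Difference in log2(RPKM + 1) between adjacent stages, later minus earlier, by histone class, with 1 point per entry, black bars at class medians and dotted lines at 2-fold. The middle panel is spread from -5.30 (Hist1h1b) to 5.95 (Hist1h1t), while most points of the left and right panels lie between the dotted lines.

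The linker histone RNAs that were most abundant differed between 3 weeks and E18. Hist1h1t, the linker histone of spermatocytes (chr13:23695814-23696725, plus strand), had 0.789 and 1.15 RPKM at E14 and E18, and 132 and 124 RPKM at 3 weeks and 6 months, from 28, 36, 4102 and 4060 reads. Both libraries after birth stood far above both fetal ones. The ratio of 3 weeks to E18 was 115 (82.8 to 164), a log2 difference of 5.95. Hist1h1b, the linker histone H1.5 (chr13:21779883-21780625, minus strand), went the other way, with 111, 88.4, 1.27 and 0.714 RPKM from 3220, 2249, 32 and 19 reads. It was 69.7-fold lower at 3 weeks than at E18 (log2 difference -5.30), the largest decrease of the 70 members. None of the 50-base windows of Hist1h1t, Hist1h1b or Hist1h1a occurs in another annotated gene.

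The other 4 H1 genes differed less. Hist1h1c, or H1.2, had 107, 73.7, 15.8 and 14.4 RPKM at the 4 stages and was the highest of the lowered H1 genes at 3 weeks (log2 difference to E18 of -2.15). Hist1h1d, or H1.3, had 20.1, 12.1, 1.00 and 0.482 RPKM (-2.71), and Hist1h1e, or H1.4, had 47.1, 37.2, 6.22 and 2.56 RPKM (-2.40). The model of Hist1h1e shares 496 exon bases with Hist1h2be on the same strand, so reads there cannot be assigned to either. Hist1h1a, or H1.1, a linker histone known from testis, thymus and spleen, had 56.8, 34.3, 73.2 and 27.6 RPKM, with the highest deposited value at 3 weeks. Its ratio of 3 weeks to E18 was 2.14 (1.97 to 2.32), a log2 difference of 1.07. Under the median of ratios it was 0.74, less in size than the -0.89 of E18 minus E14, so that E14 was then the highest stage. At 6 months it was lower than at 3 weeks, with a ratio of 0.377 (0.346 to 0.411). In shares of the summed H1 level, Hist1h1t made up 0.230%, 0.467%, 57.6% and 73.1% along the 4 stages, Hist1h1a 16.5%, 13.9%, 31.8% and 16.2%, and Hist1h1b 32.5%, 35.8%, 0.552% and 0.420%. The sum itself was 343, 247, 230.0 and 170.1 RPKM.

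**Figure D3:**
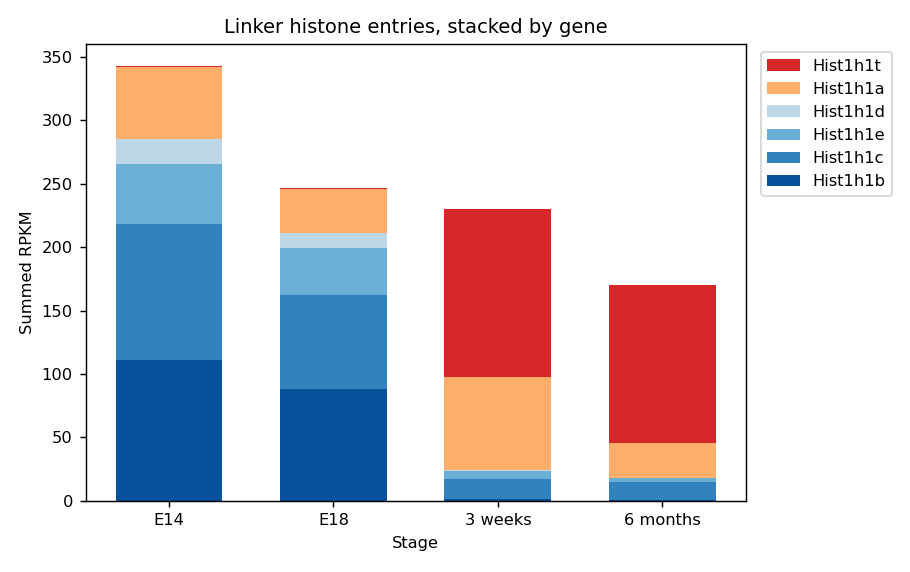
RPKM of the 6 H1 entries stacked at each stage (1 library each), with Hist1h1t in red, Hist1h1a in orange and the other 4 in blues. Blue fills most of the fetal bars, while Hist1h1t makes up 57.6% of the bar at 3 weeks and 73.1% at 6 months.

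TH2A and TH2B, the testis forms of H2A and H2B, were higher together. Hist1h2ba, which encodes TH2B (chr13:23933773-23934156, minus strand), had 64.4 and 56.3 RPKM at E14 and E18, and 630.0 and 419.9 RPKM at 3 weeks and 6 months, from 975, 749, 8321 and 5848 reads. It was the highest of all 70 members in both libraries after birth and below the median member before birth. Its ratio of 3 weeks to E18 was 11.2 (10.4 to 12.1), a log2 difference of 3.46. Hist1h2aa, which encodes TH2A (chr13:23934462-23934851, plus strand), had 4.28, 5.02, 61.1 and 39.5 RPKM from 65, 67, 809 and 551 reads, and its ratio of 3 weeks to E18 was 12.2 (9.48 to 15.9). Hist1h2ba stood above its partner at every stage, by 15.0, 11.2, 10.3 and 10.6 times. Of the 50-base windows of Hist1h2ba, 38.2% also occur in Hist1h2bj, which had 106, 70.3, 37.6 and 40.2 RPKM. Part of the fetal level of Hist1h2ba thus cannot be told apart from reads of that gene. The reverse holds for part of the level of Hist1h2bj after birth, when it had 591 and 667 reads, against 8321 and 5848 for Hist1h2ba. For Hist1h2aa, 97.7% of windows occur in no other gene. Hist1h2ba made up 68.5% of the summed H2B level at 3 weeks and 60.3% at 6 months, against 4.66% at E18 and 3.61% at E14, whereas Hist1h2aa made up 14.7% and 8.24% of the H2A sum after birth.

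The gene pair lies head to head with 305 bases between the gene starts, and it is 1 of 14 divergent pairs of an H2A and an H2B member, which lie 172 to 305 bases apart. In 10 pairs both genes were lower past 2-fold at 3 weeks than at E18. With 18 of 20 H2A and 14 of 19 H2B members lower, this count alone does not show that partners moved together. Hist1h2ba with Hist1h2aa was the pair in which both were higher. In the remaining 3 pairs, the genes were not both called in the same direction. Hist2h2ac was lower, with 119, 87.4, 12.01 and 21.1 RPKM along the stages, while its partner Hist2h2be was higher, with 1.89, 2.09, 6.01 and 2.66 RPKM. Hist1h2ag was lower (log2 difference -2.83), and its partner Hist1h2bj was lower too but did not pass 2-fold (-0.89). In the third pair, Hist3h2a and Hist3h2bb-ps, both genes were higher and neither passed 2-fold (0.86 and 0.78).

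H2A genes other than Hist1h2aa were mostly lower at 3 weeks than at E18, 18 of the 20 entries being past 2-fold. The H2A sum was 2047, 1422, 416 and 479 RPKM at the 4 stages and the median entry 106, 71.7, 11.9 and 11.6 RPKM. The largest decreases were those of Hist1h2af, with 10.6 RPKM at 3 weeks, against 95.7 at E18 (log2 difference -3.06), and of Hist1h2ag, with 10.2, against 78.8. Hist1h2ao and Hist1h2ap had the same reads within 1 in each library, which were 5963, 3528, 617 and 472 for Hist1h2ao, and they are not separate measurements. The same holds within 5 reads for Hist2h2aa1 and Hist2h2aa2. Hist1h2ab, among the highest H2A entries at E14, had 149, 95.8, 12.9 and 10.7 RPKM.

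Several H2A entries kept more of their fetal level. The pseudogene Hist1h2al was the highest H2A entry at all 4 stages, with 243, 169, 76.2 and 127 RPKM, and Hist2h2aa1 had 134, 98.4, 41.4 and 66.1 RPKM. Both were lower at 3 weeks than at E18 by little more than 2-fold (log2 differences -1.14 and -1.23). Neither passed 2-fold with equal sums (-0.86 and -0.95), and under ribosomal protein scaling the differences were 0.03 and -0.07. Both were higher at 6 months than at 3 weeks, with ratios of 1.67 (1.54 to 1.81) and 1.599 (1.503 to 1.701). Of their 50-base windows, 65.5% and 89.4% occur in the gene model Gm20634 of chromosome 3, which also holds all windows of Hist2h2aa2 and of the H3 entry Hist2h3c1. Gm20634 had 56.2, 37.1, 9.84 and 15.0 RPKM, almost the values of Hist2h3c1. Reads of these entries may be shared, and how the authors' counting split them was not tested. Hist3h2a of chromosome 11 had 23.2, 21.3, 39.6 and 31.2 RPKM. Its ratio of 3 weeks to E18 was 1.86 (1.74 to 1.98), short of 2-fold, and its log2 difference was 0.86 as deposited and 2.00 after scaling over ribosomal protein genes. It shares 708 exon bases with Trim17 on the same strand, which had 12.1, 11.2, 21.2 and 21.2 RPKM.

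As deposited, most H2B entries other than Hist1h2ba were also lower at 3 weeks than at E18. Of the 19 entries, 14 were lower past 2-fold at 3 weeks than at E18, 2 were higher and 3 passed neither limit. Under ribosomal protein scaling 8 were lower and 4 higher, and the class median was -0.66. The sum was 1786, 1207, 920.2 and 696 RPKM, and without Hist1h2ba it was 1721, 1151, 290.2 and 276. Hist1h2bl and Hist1h2bn were the highest at both fetal stages, with 191 and 186 RPKM at E14. After birth the highest beside Hist1h2ba were Hist1h2bj, which shares windows with Hist1h2ba, and Hist1h2bm. The latter had 156, 107, 29.5 and 29.9 RPKM. The largest decreases were those of Hist2h2bb, with 107, 74.5, 8.56 and 3.63 RPKM (log2 difference -2.98), and of Hist1h2bg, with 107, 82.9, 10.7 and 10.1 RPKM (-2.84). Hist2h2be, the gene of the H2B form known from mouse olfactory neurons, was low throughout and higher at 3 weeks than at E18, with a ratio of 2.88 (2.43 to 3.42) from 534 and 187 reads, and its log2 difference of 1.18 was 0.89 under the median of ratios. Hist1h2bp differed by 0.76 on the log2 scale between 6 months and 3 weeks, with 23.1 RPKM, against 13.3.

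H3 was the class lowered most. All 12 entries were lower past 2-fold at 3 weeks than at E18, with log2 differences of -4.32 to -1.81 (the entries other than Hist2h3c1 lay between -4.32 and -3.42). Their sum was 74.2 RPKM at 3 weeks and 85.0 at 6 months, against 1216.5 at E18 and 1833 at E14. The median ratio of 3 weeks to E18 was 0.0570 for H3, against 0.216 for H4, 0.276 for H2B, 0.191 for H1 and 0.164 for H2A. Hist1h3b, a gene of the large cluster on chromosome 13, had 234, 160.2, 7.08 and 8.11 RPKM from 5643, 3400, 149 and 180 reads. Hist1h3i, the highest H3 entry at E14, had 249, 159, 7.13 and 8.73 RPKM. Hist1h3a was the highest of the class after Hist2h3c1 in both libraries after birth, with 186, 124, 9.54 and 10.7 RPKM. The entry lowered least, Hist2h3c1, had 55.9, 36.9, 9.79 and 14.9 RPKM and was the lowest of the class in the fetal libraries and the highest after birth. It shares 1825 exon bases with Gm20634. H3 kept the lowest class median under each of the rescalings, at -2.81 over ribosomal protein genes and -4.20 by the median of ratios.

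H4 genes were lower past 2-fold in 13 of 13 cases between 3 weeks and E18, as far as -2.84 on the log2 scale. Under ribosomal protein scaling 7 of the 13 passed. Their sum was 2467, 1690.1, 400.1 and 347 RPKM. Hist1h4d, the highest member of all in RPKM at both fetal stages, had 406, 333, 67.1 and 36.2 RPKM. Of its windows, 89.8% occur in no other gene, but they come from 1138 annotated bases, whereas the recovered model has 393. The rank depends on that short model: at E14 Hist1h4d had 6214 reads, against 7299 for Hist2h2bb, whose model has 1747 bases. Hist1h4c was the highest H4 entry after birth, with 259, 185, 80.3 and 71.3 RPKM, and the least lowered of those above 10 RPKM at 3 weeks (log2 difference -1.19). Hist1h4k, the next highest to Hist1h4d before birth, had 307, 194, 47.7 and 44.0 RPKM. Among the largest decreases were Hist2h4 of chromosome 3, with 39.5, 21.2, 2.10 and 0.779 RPKM (-2.84), and Hist1h4h, with 242, 173, 25.6 and 38.9 RPKM (-2.71). Hist4h4, which lies alone on chromosome 6, was low throughout, with 3.02, 1.95, 0.471 and 0.349 RPKM. Its log2 difference of -1.004 was at the limit, while its ratio of 3 weeks to E18 was 0.242 (0.171 to 0.335).

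After 3 weeks the histone entries changed little as a group. Between 6 months and 3 weeks, 0 of 70 members were higher past 2-fold, against 9.73% of all entries, and 3 were lower, against 14.1%. The lower ones were Hist1h1a (log2 difference -1.38), Hist2h2bb (-1.05) and Hist1h1e (-1.02). Without the pseudocount, 6 members were lower by 2-fold or more in RPKM and 0 higher. The median difference of the members was -0.10, against -0.31 over all entries, and it was 0.54 under the median of ratios, which raised all entries by 0.38, and 0.08 under ribosomal protein scaling, so that its direction depends on the scaling. As deposited, the class median was -0.42 for H1, -0.13 for H2B, -0.12 for H4, -0.05 for H2A and 0.16 for H3. Hist1h2ba and Hist1h2aa had ratios of 6 months to 3 weeks of 0.667 (0.644 to 0.689) and 0.646 (0.579 to 0.721), and Hist1h1t had 0.939 (0.899 to 0.981). These directions depend on the scaling: under the median of ratios the log2 differences of Hist1h2ba, Hist1h2aa and Hist1h1t were 0.11, 0.06 and 0.60, and under ribosomal protein scaling that of Hist1h1t was 0.11. As deposited, the 12 spermatocyte markers summed to 428 RPKM at 6 months, against 718 at 3 weeks. Of these markers, 7 were lower past 2-fold and 0 higher, and Hspa2 had 172 RPKM, against 168. Rescaled values are not given for the markers, and their part in the histone differences was not tested.

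The members share sequence, and the sharing differs by class. A median of 50.4% of a member's 50-base windows occurred in no other annotated gene, with class medians of 98.9% for H1, 60.5% for H4, 55.9% for H2B, 38.0% for H3 and 26.8% for H2A. Of the 70 entries, 36 had at least 50% of such windows and 17 under 20%. Among the 36, 28 were lower at 3 weeks than at E18 and 5 higher, with a median of -2.17. The other 34 had 33 lower and 0 higher, with a median of -2.57. All 5 entries that were higher thus belong to the mostly unique ones. Opposite-strand genes share exon bases with 23 members, and same-strand genes with 7. Gene models ranged from 239 to 4446 bases. The windows come from annotated transcripts, and the recovered model length equalled the annotated length for 24 of the 70 members. For the others, the percentage may not describe the sequence that was counted.

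**Figure D4:**
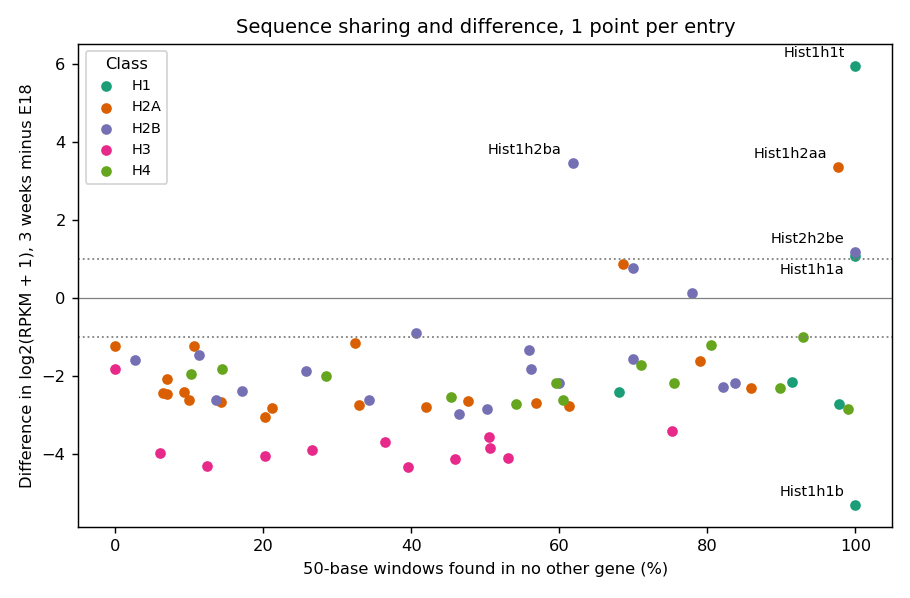
Difference in log2(RPKM + 1), 3 weeks minus E18, against the percentage of a gene's 50-base windows found in no other annotated gene, with 1 point per entry, colours for classes and dotted lines at 2-fold. Points above the upper dotted line lie at 61.8% or more, and H3 points lie below most others.

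The annotated 3' end was set beside the differences as well. After the stem-loop, 13 of the 44 members have the poly(A) signal letters AATAAA (transcript strand) in the annotated transcript, which runs 3 to 4884 bases past the stem-loop and holds the letters more readily the longer it is. Of these 13, 10 were lower at 3 weeks than at E18 and 1 was higher, Hist1h1t, with a median of -2.18. Of the 31 with a stem-loop and no such letters after it, 30 were lower and 0 higher, with a median of -2.54. Members with no stem-loop in the annotated transcript, which may end before one, had 21 of 26 lower and 4 higher, with a median of -2.27. The median RPKM of these 3 groups at E18 was 21.2, 95.4 and 75.1, and at 3 weeks 9.79, 16.6 and 9.94. RPKM divides by model length, for which the groups were not matched. At E18, Hist1h2ac, with the letters and a model of 2493 bases, had 1323 reads and 15.5 RPKM. Hist1h2ag, without them and with a model of 473 bases, had 1275 reads and 78.8 RPKM. The part of length in the group levels was not tested. By chromosome, the 3 members of chromosome 11 had a median of 0.78, against -2.41 for the 56 of chromosome 13 and -2.29 for the 10 of chromosome 3.

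Genes that make and handle histone mRNAs and histones were read in the same way. In histone mRNA processing and transcription, 3 of 19 measured genes were higher at 3 weeks than at E18, where 32% of all entries were, and 0 lower, against 10.5%. Slbp, which encodes the stem-loop binding protein, had 1.17, 1.03, 3.71 and 1.91 RPKM at the 4 stages (log2 difference 1.21). Mif4gd, which encodes a partner of SLBP in translation, had 0.741, 1.94, 20.03 and 18.3 RPKM, and the RNA helicase gene Ddx19b had 1.16, 1.502, 15.2 and 9.29 RPKM. Between 6 months and 3 weeks, 2 of the 19 were lower, against 14.1% of all entries, and 1 was higher, against 9.73%. The lower ones were Casp8ap2 (log2 difference -1.79) and Npat (-1.16), both needed for histone gene expression. Sympk, a scaffold of 3' end processing, was higher (1.12). These values are as deposited, and rescaled ones are not given for this list. At 3 weeks, 2 of 20 S phase genes were higher than at E18, against 32% of all entries, and 3 were lower, against 10.5%. Their median difference was -0.16. Ccne2, or cyclin E2, had 16.4 RPKM at 3 weeks, against 2.47 at E18, and Gins1 of the replicative helicase had 6.18, against 1.54. Ccna2, or cyclin A2, had 3.44, against 11.7, and Mcm2 of the replicative helicase had 4.83, against 13.8. The list thus held genes called in both directions, and its median lay below the 0.46 of all entries and above the -2.33 of the histone members.

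Replication-independent histones had 1 of 16 measured genes higher and 3 lower at 3 weeks than at E18, where 32% of all entries were higher and 10.5% lower. H1f0, the linker histone of resting cells, had 44.5, 68.3, 9.20 and 4.26 RPKM, and the macroH2A gene H2afy2 had 9.99, 7.62, 1.28 and 0.675. Cenpa, the gene of the centromeric H3 variant, was also lower, with 5.07, 4.39, 0.718 and 0.469 RPKM (log2 difference -1.65). H3f3a and H3f3b, the genes of the replacement histone H3.3, had 7.82 and 54.1 RPKM at 3 weeks, against 7.50 and 36.7 at E18, and neither passed 2-fold. At 6 months, the spermatid linker histone genes H1fnt and Hils1 had 174 and 219 RPKM, against 1.00 and 4.00 at 3 weeks, next to 124 and 132 for Hist1h1t. Histone chaperones had 8 of 19 higher and 0 lower at 3 weeks than at E18, against the same 32% and 10.5% of all entries. Nasp, a chaperone of H1 and H3, had 25.5 RPKM at 3 weeks, against 2.83 at E18. Asf1b, a chaperone of H3 and H4, had 14.7, against 2.86. Between E18 and E14, these 4 lists had 0 higher and 1 lower, Ccne1 of the S phase list (log2 difference -1.14). Of all entries, 2.17% were higher and 1.34% lower.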

How the data were processed

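RNA was measured in 4 libraries, 1 at each stage. The deposited values are RPKM that the authors made, per the file headers, and reads were mapped with TopHat2 to mm10, per the submitters' processing notes. The tool and gene models used for counting, the read length, and the handling of strand and of reads with several matches were not found in the labels or files. They bear on histone genes, whose copies are near-identical. Groups came from the age labels, and the 3 comparisons were those of adjacent stages.

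Differences were computed on log2(RPKM + 1), a pseudocount of 1, over the 42964 of 112302 entries that reached 1 RPKM in any library, and 2-fold was called. The filter moved no member. With 1 library per stage no p-value was computed. Whole reads and a model length were recovered from the steps between RPKM values (relative tolerance 1e-09) for 70 of 70 members. They gave exact Poisson and Clopper-Pearson intervals at 95%, which hold for counting error alone, PCR copies not being independent molecules. At the recovered depths, 3 reads in a model of 1 kb correspond to 0.0771 to 0.0884 RPKM. Annotation and transcripts were GENCODE vM21, and upstream sequence was RefSeq's, matched by symbol, with 62 members matched. Windows of 50 bases, a length chosen without knowing that of the reads, were compared over all annotated transcripts. Python 3.11.15, numpy 2.4.6, pandas 2.3.3 and scipy 1.17.1 were used, and calling and read recovery were tested on simulated data.

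Members and gene lists were chosen with earlier results of these data known. Named were every H1 member, the 3 testis histones, the 3 highest members of each class at each stage, and the 2 largest called differences in each direction per class and comparison. Others named were chosen after their values were seen, namely members that share reads or a divergent start and those that passed neither limit. The alternatives tried were rescaling (by the median of ratios, over 62 ribosomal protein genes, or to equal sums), a 4-fold limit, protein-coding members, another pseudocount (0.1), another minimum (5 RPKM) or none, and, chosen after seeing the data, members with at least 50% unique windows.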

Additional observations from a re-analysis of the deposited data

How the results depend on the processing

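No paired analysis was possible because each stage has 1 library. Of 78 values under alternatives, 58 stayed within the limits set for a change and 20 moved, and among these the median of 6 months minus 3 weeks, which is short of 2-fold, changed sign under the median of ratios and under ribosomal protein scaling. For 3 weeks minus E18 the members higher were 5 as deposited, 3 under the median of ratios, 8 under ribosomal protein scaling, and 3 with a 4-fold limit, and the 61 lower were 28 among the 36 mostly unique entries, which are fewer by construction. The median of -2.33 was -2.65 under the median of ratios and -1.26 under ribosomal protein scaling. Between 6 months and 3 weeks, members higher were 0 as deposited and 7 under the median of ratios, and the 3 lower were 5 with a pseudocount of 0.1, 0 under the median of ratios, 1 under ribosomal protein scaling, and 0 with a 4-fold limit. The median of -0.10 was 0.54 under the median of ratios and 0.08 under ribosomal protein scaling. Between E18 and E14, the 2 lower were 1 with an equal sum, 1 among protein-coding entries, which leave out Hist3h2bb-ps, and 0 at 4-fold. The median of -0.56 was -0.48 with an equal sum, -0.74 under the median of ratios, -0.69 under ribosomal protein scaling and -0.51 among mostly unique entries. Where no construction is named, the cause was not tested. Depth limits Hist1h1b and Hist4h4 after birth, at 19 to 46 reads each, and Hist1h1t before birth, at 28 and 36. The 1 library per stage leaves animal, RNA batch and stage confounded, so they cannot be told apart.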
